A study of Mus musculus with 30 samples.

Results

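Spinal cord RNA of Olig null mouse embryos was set against that of Olig heterozygous embryos at E18.5, shortly before birth. The arrays were taken by their labels, which gave 4 spinal cord arrays out of 30 in the series. The null group held 2 spinal cords, from the embryos numbered 1 and 2, whose tissue labels read Olig2 -/-. The heterozygous group held 2 spinal cords, from the embryos numbered 3 and 4, labelled Olig2 +/-. The design text of the series writes both genotypes as Olig1/2, so which of the 2 neighbouring genes was disrupted is not settled by the labels. All 4 embryos were on a mixed Swiss and C57BL/6J background, and the heterozygous cords, which carry 1 working copy, served as the control because the series holds no wild-type tissue. The rest of the series was forebrain of embryos with the same numbers and neurosphere cultures of Olig genotypes, in a study of ID4 and the OLIG factors in glioma. RNA was read on Affymetrix Mouse Genome 430 2.0 arrays as MAS5 signals, an intensity in arbitrary units that the authors scaled to the same trimmed mean on every array.

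OLIG1 and OLIG2 are basic helix-loop-helix transcription factors made in a narrow band of ventral spinal cord progenitors, the motor neuron progenitor domain. In the mouse that domain first gives rise to motor neurons and later to oligodendrocyte precursors, which spread through the cord and mature into the cells that make myelin. OLIG2 is needed for both steps, and in mice without both factors the domain has been described to yield ventral interneurons and astrocytes instead. By the end of gestation motor neurons have long been born, most oligodendrocyte lineage cells are precursors, and the first of them have begun to make myelin proteins.

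Each gene was read from 1 probe set, and differences are log2 of the signal plus 16, null minus heterozygous, with their standard error, so that the fold of dim genes is understated. Of 18193 genes with a probe set, 12342 reached the array's median signal on at least 2 of the 8 tissue arrays and were tested with limma over all 8, and genes with an adjusted p under 0.05 are described as called. The median signal of the 4 spinal cord arrays ran from 202.1 to 217.4. Across tested genes, the arrays correlated at r = 0.963 within the null pair and r = 0.962 within the heterozygous pair, against 0.954 to 0.962 between the genotypes. The Gapdh 3' to 5' log2 ratio, a mark of RNA integrity, was 0.30 and 0.29 on the null arrays and 0.37 and 0.04 on the heterozygous arrays. Xist signals lay between 20965 and 21415 on all 4 arrays, and this X-inactivation transcript overlapped between the genotypes. In whole cord, fewer cells of a type and less RNA per cell cannot be told apart.

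Between null and heterozygous cord 16 genes were called, 0.13% of those tested, and 742 had an unadjusted p under 0.05. Of the called genes 9 were lower in null cord (0.0729% of genes tested) and 7 were higher (0.0567%). The lower genes were Gpr17, Olig2, Mbp, Kcnq5, Chodl, Cnp, Nefm, Ecel1 and Olig1. The higher genes were Sox11, Col15a1, Mboat2, Siah1a, Dcn, Soga3 and Col4a1. With 2 arrays a group the calls lean on how limma shares the spread between genes: without a trend of the spread on signal level only Gpr17 was called. Without null array 2 only 2 genes were called, without heterozygous array 3 there were 5 and without null array 1 there were 10.

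**Figure D1:**
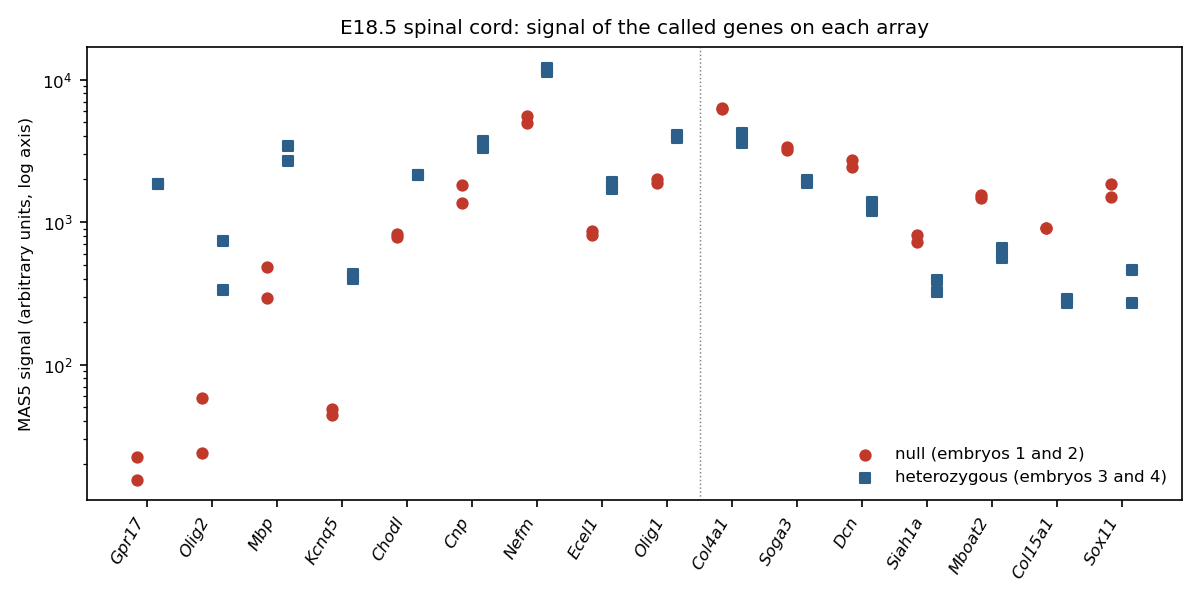
MAS5 signal (arbitrary units, log axis) of the 16 genes called between null and heterozygous E18.5 spinal cord, lower genes left of the dotted line and higher genes right of it. Each point is 1 array, null as red circles and heterozygous as blue squares. The 2 null arrays lie on the same side of the 2 heterozygous arrays for every gene shown, as a call largely requires.

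Olig1 and Olig2, the genes named in the genotypes, were read first. Olig2 had signals of 58.5 and 23.8 in null cord, against 335 and 736 in heterozygous cord. Both null arrays lay far below both heterozygous arrays, although the heterozygous pair itself spread widely. The log2 difference was -3.24 ± 0.51, with a limma adjusted p of 0.0431, and the call was lost in 13 of 21 alternative settings, with the direction kept. Olig1 had 2007 and 1878 in null cord, against 3901 and 4068 in heterozygous cord. Its difference was -1.03 ± 0.12 (limma adjusted p = 0.00537), which leaves about as much signal in null cord as was lost. Where the Olig1 and Olig2 probes lie relative to the disrupted sequence is not stated by the labels, so the Olig1 signal does not tell which transcript remained. None of the 13 tested genes that neighbour the Olig genes was called, and none had an unadjusted p under 0.05 by limma. Their median difference was 0.06, against -0.0043 over all tested genes.

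Transcripts of the oligodendrocyte lineage were the most reduced. Of 25 listed precursor genes 21 were tested, 3 were called lower (Gpr17, Olig2 and Olig1) and 0 higher, and their median log2 difference was -0.50, against -0.0043 for all tested genes. In 14 of the 21 both null arrays lay below both heterozygous arrays, as in 17.8% of all tested genes. In 7 they did so with a difference of at least 2-fold, against 0.64% of all genes. Olig1 and Olig2 are the genes named in the genotypes, so their fall is not separate evidence on the lineage. Both count among the 14 and the 7, and of the called precursor genes only Gpr17 is not named in the genotypes.

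Gpr17, a receptor of committed precursors and newly forming oligodendrocytes, gave the largest difference of any called gene. Its signal was 22.4 and 15.5 in null cord, against 1838 and 1853 in heterozygous cord. The null arrays were near the bottom of the signal range while the heterozygous arrays were bright and nearly equal. The log2 difference was -5.74 ± 0.37 (limma adjusted p = 0.000133), and it was called in all 21 alternative settings. The other precursor genes moved less. Tnr, which encodes the matrix protein tenascin-R, had 297 and 275 in null cord, against 606 and 639 in heterozygous cord (-1.08 ± 0.20, limma adjusted p = 0.108). Nkx2-2, a transcription factor that acts with OLIG2 in oligodendrocyte differentiation, had 332 and 355 in null cord, against 640.3 and 794 in heterozygous cord (limma adjusted p = 0.231). Cspg4, the NG2 proteoglycan of precursors, had 370.4 and 361 in null cord, against 691 and 709 in heterozygous cord (limma adjusted p = 0.215). For these 3 genes the genotypes did not overlap, but none passed the test.

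Sox10, the transcription factor kept through the whole lineage and also used by Schwann cells, differed least among the defining precursor genes. It had 428 and 543 in null cord, against 654 and 672 in heterozygous cord, a difference of -0.45 with a 95% interval from -0.94 to 0.04. A second Sox10 probe set read 52.6 and 309 in null cord, against 718 and 1239 in heterozygous cord, so the size of the Sox10 difference depends on the probe set. Pdgfra, the growth factor receptor of precursors, was below the filter on its chosen probe set, with 115 and 35.8 in null cord and 156 and 171 in heterozygous cord. A brighter Pdgfra probe set in these cords had 453 and 914 in null cord, against 1232 and 1402 in heterozygous cord. Null array 2 was the lower null array on the first probe set and the higher one on the second.

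Markers of the step into myelination followed. Bcas1, which marks oligodendrocytes that have just begun to differentiate, had 239 and 111 in null cord, against 1371 and 1583 in heterozygous cord. The null arrays lay far below the heterozygous arrays, with a difference of -3.05 ± 0.49 and a limma adjusted p of 0.053, the nearest of any gene outside the threshold. Bcas1 was called in 7 of the alternative settings. None of the 14 tested genes of the early oligodendrocyte list was called by limma, 5 had an unadjusted p under 0.05, and the median difference was -0.27. In 9 of the 14 both null arrays lay below, against 17.8% of all tested genes, and 1 of these, Bcas1, was at least 2-fold lower, against 0.64% of all genes. Myrf, the transcription factor that switches on myelin genes, was below the filter, with 46.3 and 64.5 in null cord and 187 and 308 in heterozygous cord.

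Of 24 listed myelin genes 14 were tested, 2 were called lower (Mbp and Cnp) and 0 higher, with a median of -0.32. In 7 of the 14 the null arrays lay below, 4 of them by at least 2-fold, against 17.8% and 0.64% of all tested genes. Mbp, myelin basic protein, had 293 and 486 in null cord, against 2699.6 and 3393 in heterozygous cord. The difference was -2.95 ± 0.26 (limma adjusted p = 0.0013), with no overlap. Mbp has 8 probe sets here, and 7 were lower in null cord, with differences that ran from -4.19 to 0.04. The most reduced of them read 249.7 and 341 in null cord, against 4852 and 6458 in heterozygous cord. The pair that differed little read 707 and 340.3 on 1 and 641 and 597 on the other in null cord, against 454 and 502 on the first and 573 and 849.9 on the second in heterozygous cord. Mbp lies in a larger transcription unit with non-myelin transcripts, and which transcript each probe set reads was not tested.

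Cnp, an enzyme of the myelin membrane that is made before compact myelin, had 1823 and 1359 in null cord, against 3330 and 3719.8 in heterozygous cord. Cnp stayed well above the background in null cord, unlike Gpr17, and the genotypes did not overlap. The difference was -1.15 ± 0.15 (limma adjusted p = 0.0121). All 3 Cnp probe sets were lower, from -1.34 to -1.15. Ugt8a, which makes the galactolipids of myelin, had 133 and 159 in null cord, against 369 and 432 in heterozygous cord (limma adjusted p = 0.423). Plekhb1 had 733 and 473 in null cord, against 1314 and 1105 in heterozygous cord (limma adjusted p = 0.214). Mag, a later myelin glycoprotein, overlapped between the genotypes, with 305 and 442 in null cord and 308 and 636 in heterozygous cord. Mog, made last of these, was below the filter with at most 48.8 on any spinal cord array.

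**Figure D2:**
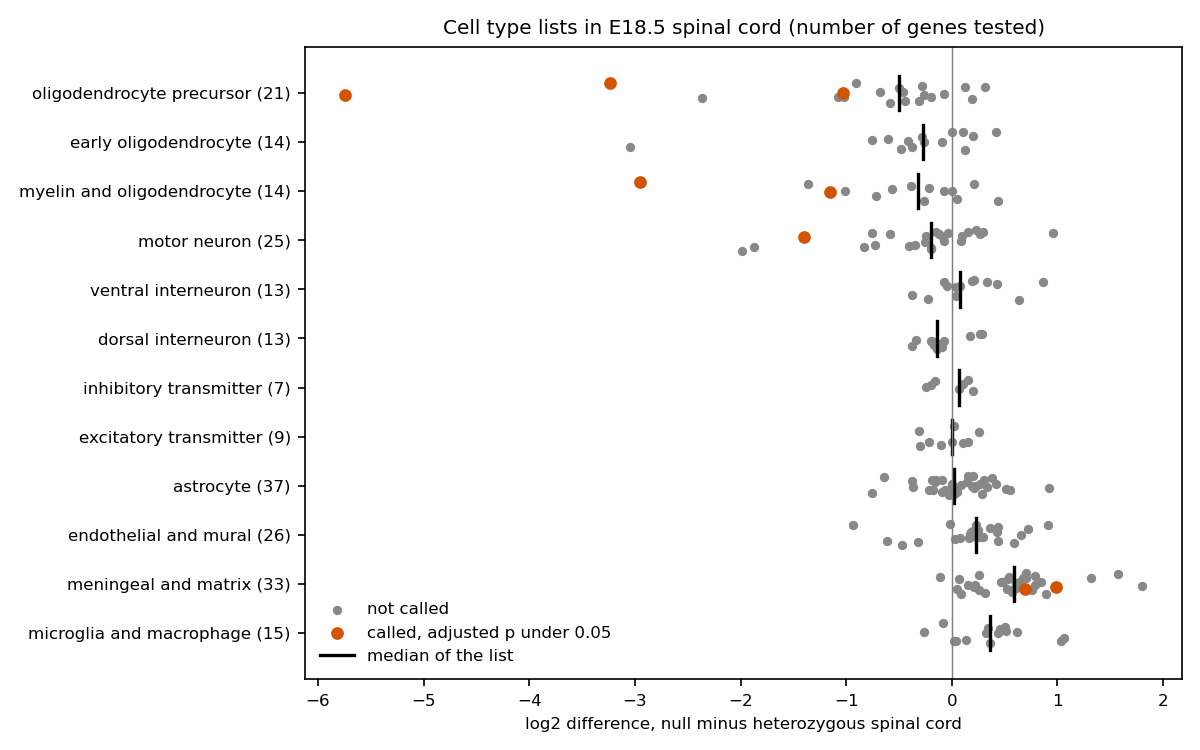
Log2 difference, null minus heterozygous spinal cord, of every tested member of 12 cell type lists, with the number tested in brackets. Each point is 1 gene, orange where called, and the black bar is the list's median. The oligodendrocyte and motor neuron lists have long tails to the left, and the meningeal and matrix list lies to the right around its median of 0.59.

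Motor neuron transcripts were lower in part. Of 30 listed genes 25 were tested, 1 was called lower (Chodl) and 0 higher, and the median was -0.19. In 10 of the 25 both null arrays lay below and in 3 above, against 17.8% and 17% of all tested genes. The same list in forebrain had 7 below and 1 above, against 18.1% and 18.3% of all tested genes there, with a median of -0.08. Chodl, chondrolectin, a membrane protein that marks fast motor neurons in the mouse, had 784 and 821 in null cord, against 2151 and 2140.4 in heterozygous cord. Replicates agreed closely and did not overlap, and the difference was -1.40 ± 0.18 (limma adjusted p = 0.0121). The Chodl call was kept in 16 of 21 alternative settings. It was lost without the trend and without any 1 of the 4 spinal cord arrays, with the direction kept. The vesicular acetylcholine transporter Slc18a3 had 179 and 208 in null cord, against 752 and 749 in heterozygous cord, a difference of -1.88 ± 0.42 (limma adjusted p = 0.273). Calcb, a calcitonin gene-related peptide of motor and sensory neurons, had 153 and 148 in null cord, against 693 and 601 in heterozygous cord (-1.99 ± 0.48, limma adjusted p = 0.324). Both were 3-fold or more lower in signal with no overlap, but missed the threshold in the fit over 8 arrays. In a limma fit of the 4 spinal cord arrays alone both were called, as was the position gene Hoxc8, while Olig2 and Siah1a were not.

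Other cholinergic and identity genes differed less. Choline acetyltransferase, Chat, had 173 and 206 in null cord, against 258 and 328 in heterozygous cord (limma adjusted p = 0.908). Isl1, a LIM factor of motor neurons and some interneurons and sensory neurons, had 209.7 and 391 in null cord, against 558 and 440.4 in heterozygous cord (limma adjusted p = 0.558). Its null arrays were unlike each other and the higher one came close to the heterozygous pair. Isl2 overlapped, with 438 and 330 in null cord and 337 and 375 in heterozygous cord, a difference of 0.09 with a 95% interval from -0.42 to 0.61. Mnx1, the homeobox gene of nearly all motor neurons, was below the filter, with 43.2 and 81.6 in null cord and 80.2 and 138 in heterozygous cord. Slc5a7, the choline transporter, was below it too, with 23.6 and 74 in null cord and 134 and 192 in heterozygous cord.

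Among genes outside the cell type lists, Ecel1 and Kcnq5 fell, as did Nefm of the list of genes common to neurons. Nefm, the medium neurofilament subunit of large axons, had 5590 and 4946 in null cord, against 12139 and 11262 in heterozygous cord (-1.15 ± 0.13, limma adjusted p = 0.00499). It was the 1 called gene of 18 tested in that list, whose median was -0.04. Nefl, its light partner, had 9024 and 8286 in null cord, against 12107 and 12662 in heterozygous cord (limma adjusted p = 0.383). Tubb3, a tubulin of all neurons, overlapped between the genotypes with a difference of -0.02 and a 95% interval from -0.24 to 0.20. Ecel1, a membrane protein of the endopeptidase family that motor axons of the mouse need to branch at muscle, had 814 and 867 in null cord, against 1709 and 1920.5 in heterozygous cord (-1.09 ± 0.15, limma adjusted p = 0.0166). Kcnq5, a potassium channel subunit, had 43.9 and 48.7 in null cord, against 401 and 429 in heterozygous cord (-2.79 ± 0.37, limma adjusted p = 0.0146). Its other 2 probe sets were also lower, the smaller difference being -0.46. That probe set was read when the choice was made on the 8 tissue arrays, and Kcnq5 was then not called. Ecel1 and Kcnq5 also lost their calls without any 1 of the 4 spinal cord arrays, with the direction kept.

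The promoter windows of 3 lower genes are shown as examples because OLIG factors belong to a family that binds the E-box, CANNTG. Of the 16 called genes 11 have a window in the RefSeq table of GRCm38.p6, running from 250 bases before to 50 bases after the start. Each is printed 5′ to 3′ on the gene's strand, with CANNTG in capitals. Chodl lies at chr16:78930698-78930997 on the plus strand, Ecel1 at chr1:87156307-87156606 on the minus strand and Cnp at chr11:100574689-100574988 on the plus strand.
Chodl: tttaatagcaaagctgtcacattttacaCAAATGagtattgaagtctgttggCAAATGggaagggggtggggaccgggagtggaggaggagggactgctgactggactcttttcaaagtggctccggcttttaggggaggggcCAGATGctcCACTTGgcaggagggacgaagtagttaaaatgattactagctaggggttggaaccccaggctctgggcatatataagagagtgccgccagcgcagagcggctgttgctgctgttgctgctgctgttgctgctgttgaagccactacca
Ecel1: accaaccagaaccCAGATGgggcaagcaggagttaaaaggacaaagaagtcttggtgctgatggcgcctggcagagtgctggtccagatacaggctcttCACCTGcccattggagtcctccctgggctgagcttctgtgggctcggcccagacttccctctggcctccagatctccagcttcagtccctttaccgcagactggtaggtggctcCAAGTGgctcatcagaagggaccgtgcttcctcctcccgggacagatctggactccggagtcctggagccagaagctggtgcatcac
Cnp: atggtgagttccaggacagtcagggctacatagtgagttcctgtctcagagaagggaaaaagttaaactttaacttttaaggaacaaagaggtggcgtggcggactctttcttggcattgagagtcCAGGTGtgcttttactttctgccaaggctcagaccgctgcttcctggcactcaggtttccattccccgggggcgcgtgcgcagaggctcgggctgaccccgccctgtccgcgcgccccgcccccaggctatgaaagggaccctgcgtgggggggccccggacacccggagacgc
Chodl held 4 such matches, Ecel1 3 and Cnp 1. They are the lower genes whose windows hold the motif, 3 of the 5 lower genes with a window, and the Kcnq5 windows held none. Over all 11 called genes with a window 5 held it. CANNTG reads the same on both strands as a pattern and occurs in 72.3% of all 32851 promoter windows, so its share among the called genes was not above that of all windows. The narrower form CAGATG, searched on both strands and itself a CANNTG, was found in Chodl and in Ecel1 and occurs in 17.2% of all windows. The Olig2 window, chr16:91225300-91225599 on the plus strand, held no CANNTG. These are matches of letters only, and whether an OLIG factor binds there was not measured.

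Material that could differ between dissections was read beside the neuronal results. The 13 sensory ganglion genes with a probe set summed to 11685 and 11828 in null cord, against 14426 and 11216 in heterozygous cord, with 0 of 9 tested called by limma and 0 at an unadjusted p under 0.05. Within that list Avil, a marker of sensory neurons, had 288 and 366 in null cord, against 424 and 31.5 in heterozygous cord. The summed ganglion signal was higher on heterozygous array 3 than on the other 3 arrays. The list holds Tubb3, a tubulin of all neurons, and its sum ran from 13409 to 16169 on the forebrain arrays. The sum therefore does not read ganglion tissue alone. For Schwann cells 0 of 4 tested genes were called, and none of the 4 had an unadjusted p under 0.05 by limma. Skeletal muscle genes summed to 1589 and 1866 in null cord, against 2267 and 2183 in heterozygous cord, and cartilage and bone genes to 3199 and 3905 in null cord, against 4131 and 3662 in heterozygous cord. Among position genes, Hoxd10, which marks the lumbar cord, had 2369.8 and 591 in null cord, against 2947 and 2119 in heterozygous cord. Hoxc8, which marks the thoracic cord, had 6598 and 6540.2 in null cord, against 4339 and 4437 in heterozygous cord. By limma 0 of 19 Hox genes were called and 1 had an unadjusted p under 0.05. In the fit of the 4 spinal cord arrays alone Hoxc8 was called, with a difference of 0.58 and a limma adjusted p of 0.0416. The part of these tissues and levels in the motor neuron differences was not tested. Signals of forebrain genes were low in the cord, as for Tbr1, which had 3.8 and 4.2 in null cord and 28.2 and 32.7 in heterozygous cord.

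A gain of interneuron transcripts was not detected by the test. Of 13 tested ventral interneuron genes 0 were called by limma and 2 had an unadjusted p under 0.05, with a median of 0.08. In 6 of the 13 both null arrays lay above and in 1 below, against 17% and 17.8% of all tested genes. Foxp2, a factor of the V1 inhibitory interneurons, had 1585 and 1587 in null cord, against 945 and 1085 in heterozygous cord (0.64 ± 0.14, limma adjusted p = 0.273). Shox2, a factor of excitatory V2a and related interneurons, had 499 and 716 in null cord, against 338 and 307 in heterozygous cord (0.86 ± 0.33, limma adjusted p = 0.715). Neither gene overlapped between genotypes. Gata2, a factor of V2b interneurons, had 719.6 and 654 in null cord, against 538 and 648 in heterozygous cord, and Sim1, a factor of V3 interneurons, overlapped between the genotypes.

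The ventral class markers Evx1, Sox14, En1 and Gata3 were below the filter, and their values ran in both directions. Evx1, the V0 factor, had 159 and 142 in null cord, against 48.7 and 52.1 in heterozygous cord. Sox14, of a V2a subset, had 40.5 and 39.3 in null cord, against 167 and 148 in heterozygous cord. En1, the V1 factor, had 83.7 and 21.4 in null cord, against 124 and 106 in heterozygous cord. Gata3, of V2b interneurons, had 103 and 14.9 in null cord, against 14.9 and 14.1 in heterozygous cord. Evx1 was higher and Sox14 lower without overlap. In the limma fit without the filter none of these 4 genes was among the 12 called. Among the progenitor genes, Dbx1, of the V0 progenitor domain, had 184 and 291 in null cord, against 69.7 and 26.9 in heterozygous cord (2.03 ± 0.67, limma adjusted p = 0.581), and 0 of 19 tested were called by limma, with 1 at an unadjusted p under 0.05.

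Dorsal interneuron genes and transmitter genes were close to level. Of 13 tested dorsal genes 0 were called by limma and 0 had an unadjusted p under 0.05, with a median of -0.14. The 7 inhibitory transmitter genes had a median of 0.07 and the 9 excitatory ones 0.00. In each of these 2 lists limma called 0 genes and 1 had an unadjusted p under 0.05. Gad1, which makes GABA, had 4038 and 3658 in null cord, against 3420 and 3748 in heterozygous cord, a difference of 0.10 with a 95% interval from -0.11 to 0.32. The inhibitory vesicular transporter Slc32a1 had an interval from -0.20 to 0.51 and the glutamate transporter Slc17a6 one from -0.32 to 0.52. Each interval spans 0 and excludes a 2-fold change. Slc6a5, the glycine transporter, was below the filter.

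No astrocyte transcript passed the test. Of 37 tested genes limma called 0, 8 had an unadjusted p under 0.05, and the median was 0.02, with 10 genes whose null arrays lay above and 8 below, against 17% and 17.8% of all tested genes. Over all genes 742 of 12342 had an unadjusted p under 0.05. Gfap, the astrocyte intermediate filament, had 3773 and 2775 in null cord, against 2864 and 3528 in heterozygous cord, a difference of 0.03 with a 95% interval from -0.37 to 0.42. Aqp4, the water channel of astrocyte endfeet, differed by 0.21 with an interval from -0.15 to 0.57. Slc1a3, a glutamate transporter of astrocytes and radial glia, differed by 0.27 with an interval from -0.02 to 0.57. For these 3 genes a 2-fold change lay outside the interval. The 4 members of smallest p were Tnc, Gja1 and Glul, with higher values in null cord, and Ntsr2, with lower ones. Tnc, tenascin-C, had 3007 and 2500.4 in null cord, against 2014 and 2089 in heterozygous cord (limma adjusted p = 0.43). Ntsr2 had 387 and 405 in null cord, against 567 and 695 in heterozygous cord (limma adjusted p = 0.558).

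Id4, an inhibitor of helix-loop-helix factors named in the title of the study, overlapped between the genotypes. It had 9414 and 7558 in null cord, against 8523 and 8321 in heterozygous cord. The difference was 0.00 with a 95% interval from -0.24 to 0.25. Among 16 tested BMP pathway and Id genes limma called 0 and 4 had an unadjusted p under 0.05, and the median was 0.12. Id3, a target of BMP signalling, had 2322 and 1838 in null cord, against 1274 and 1559 in heterozygous cord (limma adjusted p = 0.631).

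**Figure D3:**
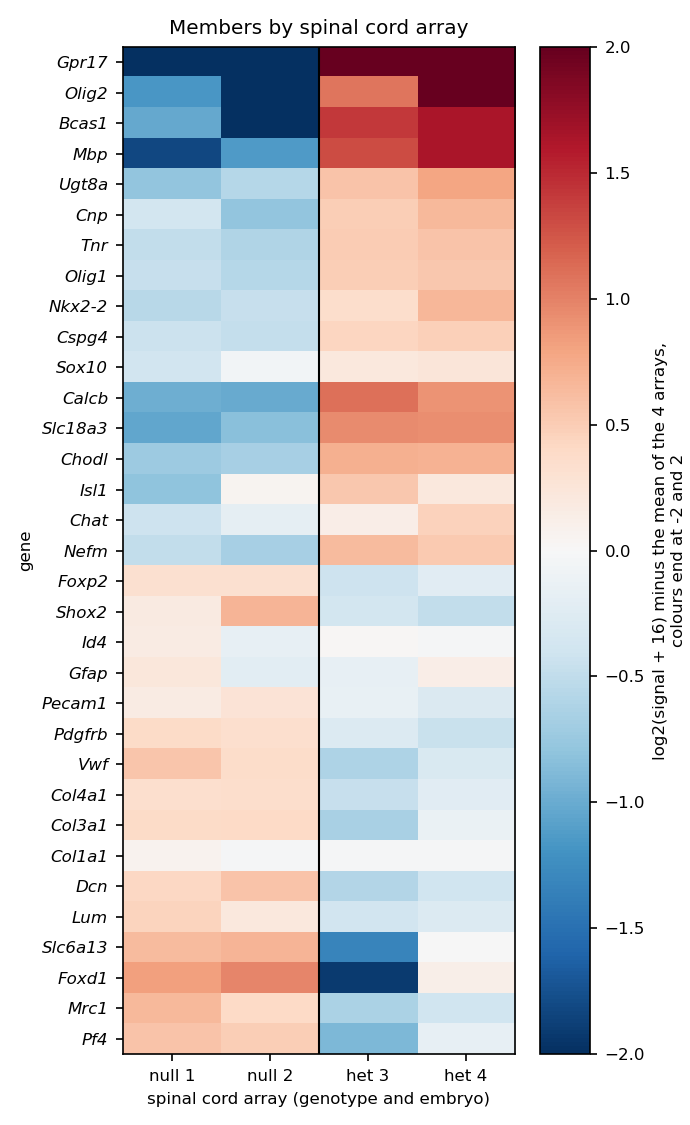
Signal of 33 oligodendrocyte, motor neuron, interneuron, astrocyte, vascular, matrix and macrophage genes on the 4 spinal cord arrays, as log2(signal + 16) minus the mean of the 4 arrays. Rows are genes and columns arrays, null left of the line. Most oligodendrocyte and motor neuron genes are blue on both null arrays, although Isl1 is close to its mean on the higher of them. Several matrix and macrophage genes are red on both null arrays and deepest blue on heterozygous array 3.

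Matrix transcripts were the list with the most members higher in null cord. Of 36 listed meningeal and matrix genes 33 were tested, 2 were called higher (Col4a1 and Dcn) and 0 lower, and 17 had an unadjusted p under 0.05. In 26 of the 33 both null arrays lay above both heterozygous arrays, as in 17% of all tested genes, and in 0 below. The median was 0.59 in spinal cord and -0.01 in forebrain of embryos with the same numbers. The size was modest for most members, with 3 at least 2-fold higher without overlap, against 0.81% of all genes.

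Col4a1, a chain of the type IV collagen of basement membranes, had 6223 and 6271 in null cord, against 3572 and 4190.1 in heterozygous cord (0.69 ± 0.09, limma adjusted p = 0.0169). Its second probe set was higher too, by 0.83. Dcn, decorin, a small proteoglycan that binds collagen fibrils, had 2416 and 2709 in null cord, against 1198 and 1377 in heterozygous cord (0.99 ± 0.15, limma adjusted p = 0.0431). Col15a1, a collagen of the basement membrane zone around vessels, which was not on the list, had 914 and 905 in null cord, against 289 and 269 in heterozygous cord (1.65 ± 0.26, limma adjusted p = 0.0431). All 3 genes were separated between genotypes by much more than their replicates differed. Col6a1 had 2541 and 2528 in null cord, against 1229.6 and 1510.2 in heterozygous cord (limma adjusted p = 0.0648). Col3a1, a fibrillar collagen of meninges and vessel walls, had 11897 and 12023 in null cord, against 5792 and 8262 in heterozygous cord (limma adjusted p = 0.135). Col1a1 was level, with 2435 and 2292 in null cord and 2281.5 and 2276 in heterozygous cord, although its other probe set had 5267 and 6336 in null cord, against 4220.1 and 4455 in heterozygous cord.

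The heterozygous arrays were unequal in this list. Summed over 35 probe sets the signal was 103512 and 99927 in null cord, against 62137 on heterozygous array 3 and 77549 on heterozygous array 4. Without heterozygous array 3 the median of the list was 0.345, and neither Col4a1 nor Dcn was called. The lost calls were not particular to that array. Dcn lost its call without any 1 of the 4 spinal cord arrays, and Col4a1 also without either null array. Col15a1, not on the list, lost its call in the same way as Dcn. Slc6a13 and Foxd1, markers of the meninges singled out after their values were seen, show the inequality most. Slc6a13 had 833 and 862 in null cord, against 204 and 528 in heterozygous cord. Foxd1 had 209 and 234 in null cord, against 17.7 and 121 in heterozygous cord. The share of meninges kept at dissection is not given by the labels, and its part in the matrix difference was not tested.

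No vessel or macrophage gene of the lists was called. Of 26 tested endothelial and mural genes limma called 0 and 5 had an unadjusted p under 0.05, with a median of 0.23. In 11 the null arrays lay above and in 4 below, against 17% and 17.8% of all tested genes. Pdgfrb, the pericyte receptor, had 949.8 and 928 in null cord, against 598 and 530.4 in heterozygous cord (limma adjusted p = 0.515). Vwf, made by endothelium, had 608 and 531 in null cord, against 263 and 330 in heterozygous cord (limma adjusted p = 0.62). Pecam1, present on all endothelium, had 277 and 300.1 in null cord, against 220.5 and 198 in heterozygous cord, a difference of 0.44 with a 95% interval from -0.19 to 1.07. Mfsd2a, a lipid transporter of the blood-brain barrier, ran the other way, with 547 and 425 in null cord, against 812 and 689 in heterozygous cord (limma adjusted p = 0.549). Of 15 tested microglia and macrophage genes limma called 0 and 3 had an unadjusted p under 0.05, with a median of 0.36. In 10 the null arrays lay above and in 1 below, against the same shares of all genes. Pf4 had 1436 and 1359.5 in null cord, against 509 and 858 in heterozygous cord, and Mrc1, a receptor of macrophages at brain borders, had 939 and 786 in null cord, against 377 and 447 in heterozygous cord. Csf1r, the growth factor receptor of all these cells, had 3419.6 and 3442 in null cord, against 2483 and 2009 in heterozygous cord.

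The other 4 higher genes belonged to none of the lists. Sox11, a transcription factor of immature neurons, had 1494 and 1859.6 in null cord, against 269 and 458 in heterozygous cord (2.19 ± 0.21, limma adjusted p = 0.00251). This holds for 1 of its 6 probe sets. Of the 6, 3 were lower and 3 higher, and the most reduced read 3196 and 3337 in null cord, against 5062 and 5622 in heterozygous cord. No direction can be given for Sox11 as a gene. Mboat2, a membrane-bound acyltransferase, had 1555 and 1471 in null cord, against 653 and 556 in heterozygous cord (1.31 ± 0.13, limma adjusted p = 0.00302), while its second probe set differed by -0.15. Siah1a, a ubiquitin ligase, had 816 and 730.4 in null cord, against 392.2 and 325 in heterozygous cord (1.08 ± 0.16, limma adjusted p = 0.0371), while its other 2 probe sets were slightly lower. Soga3 had 3229 and 3364 in null cord, against 1989 and 1885 in heterozygous cord (0.76 ± 0.09, limma adjusted p = 0.00537), and its second probe set differed by -0.21. For these 4 genes the difference rests on a single probe set, in contrast to Cnp and Col4a1.

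**Figure D4:**
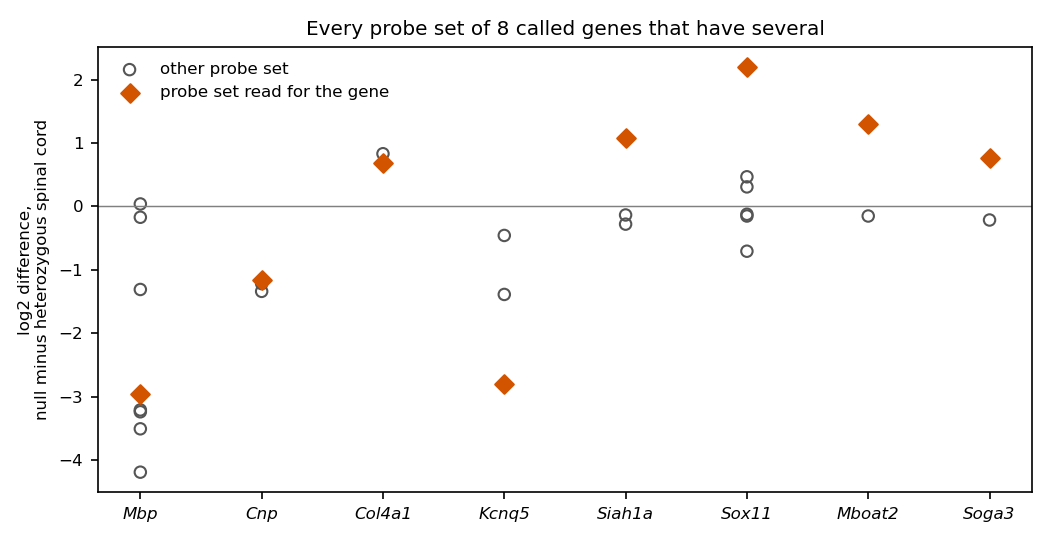
Log2 difference, null minus heterozygous spinal cord, of every probe set of 8 called genes that have several. The orange diamond is the probe set read for the gene and open circles are the others. All Cnp, Col4a1 and Kcnq5 probe sets lie on 1 side of 0, although those of Kcnq5 run from -2.79 to -0.46. Siah1a, Sox11, Mboat2 and Soga3 each have 1 probe set well above 0 and others near or below it.

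Forebrain of the same embryo numbers was used to ask where the spinal cord differs. In forebrain 5 genes were called, 0.0405% of those tested, and 3 of them were the single probe sets of Sox11, Mboat2 and Soga3 that were called in spinal cord, again with higher signal in null tissue. The forebrain differences of these probe sets were 2.61 for Sox11, 1.28 for Mboat2 and 0.64 for Soga3, and other probe sets of each gene ran the other way in spinal cord. The Sox11 and Mboat2 promoter windows both lie on chromosome 12, and the Soga3 window on chromosome 10. The test of the difference between tissues called 0 genes by limma, with 705 at an unadjusted p under 0.05. The smallest adjusted p was 0.148, for Gpr17, which had 48.4 and 81.4 in null forebrain and 241 and 253 in heterozygous forebrain. Its null effect was lower in spinal cord by 4.01 on the log2 scale, with a 95% interval from -5.18 to -2.84. For Nefm the effect in spinal cord minus that in forebrain was -1.10 with an interval from -1.49 to -0.70, for Mbp -2.20 with an interval from -3.01 to -1.40, and for Col15a1 1.74 with an interval from 0.93 to 2.54. These intervals are not adjusted for the number of genes. They belong to genes already called on their spinal cord difference, which is part of this contrast, so they may lie too far from 0. After adjustment for the number of genes, no gene was shown to respond differently in spinal cord. The oligodendrocyte precursor list had a median of -0.50 in spinal cord and -0.10 in forebrain.

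**Figure D5:**
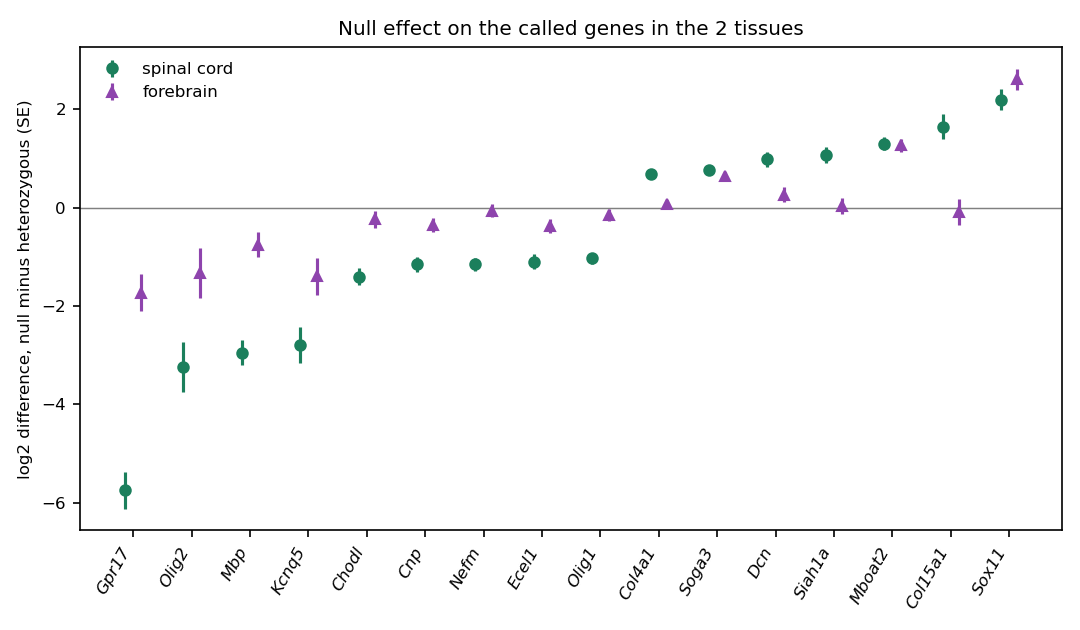
Log2 difference, null minus heterozygous, of the 16 genes called in spinal cord, in spinal cord (green circles) and in forebrain (purple triangles), with bars of 1 standard error from limma (2 arrays a group). The probe sets read for Sox11, Mboat2 and Soga3 lie above 0 in both tissues, although others of these genes do not in spinal cord, while Gpr17, Mbp, Nefm and Col15a1 lie further from 0 in spinal cord.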

How the data were processed

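The deposited values are MAS5 signals, per the submitters' processing notes, an intensity that is not logged. In the deposited table each array has a mean of 500 once 2% of the probe sets are trimmed at either end. The sources used here name no MAS5 version, and detection calls were not used. Of 45101 probe sets, 34958 had 1 gene symbol, and where a gene had several, the one with the highest log2 signal averaged across the 30 arrays stood for it. Promoters came from RefSeq, GRCm38.p6.

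Values were log2 of the signal plus 16. The 8 tissue arrays were fitted as 4 groups in limma 3.58.1 under R 4.3.3 (lmFit, a contrast for each comparison, eBayes with trend), two-sided, with Benjamini-Hochberg adjustment over all 12342 genes tested, and 4 residual degrees of freedom. The pipeline was tested on simulated data. Plots used python 3.11.15 and matplotlib 3.10.9.

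In all, 26 gene lists with 502 memberships were used, 465 with a probe set and 374 tested. The members and lists were chosen with earlier results of these data known. Genes named were Olig1, Olig2, the called genes, the called or 4 smallest-p members of each list described and its defining markers. Id4, Nefl, Tubb3, Dbx1, Id3, Csf1r, Avil, Tbr1, Myrf, Slc5a7, the Hox genes, Slc6a13 and Foxd1 were added after their values were seen. Uts2, Sox3, Cxcl12 and Col4a5 were added in the same way. The labels number the embryos but do not say that they were separate litters. The p-values rest on the spread within the 4 groups of the 8 tissue arrays, shared between genes by limma. They do not take in a spread between litters, and the number of arrays limits the precision. All arrays share 1 hybridisation date in the labels, so no batch could be compared. Embryo numbers are the same in both tissues, which pairs forebrain with spinal cord but not null with heterozygous; deviations of same-numbered arrays correlated at r = 0.03 in the null pair and 0.04 in the heterozygous pair, and the embryo as a block was an alternative. Other alternatives were pseudocounts, filters, scaling, probe set choice, the variance model, a fit of 2 against 2 arrays, a 2-fold limit and each array left out. One of them, the choice of probe set on the 8 tissue arrays, was added after seeing the data.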

Additional observations from a re-analysis of the deposited data

How the results depend on the processing

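Of the 16 called genes, 1 remained called without the trend in limma (0 higher, 1 lower) and 9 genes were called when the probe set was chosen on the 8 tissue arrays (3 higher). The 7 higher calls became 4 without the filter on low signals and 4 with a 2-fold limit. Leaving out 1 array gave 2 to 17 calls, 0 to 8 higher and 2 to 10 lower. The fewest came without null array 2 (2 calls), then heterozygous array 3 (5), null array 1 (10, with 3 higher) and heterozygous array 4 (11, of which 3 lower). These counts include genes not called with all 8 arrays, such as Ddn without heterozygous array 3 and Col3a1 without heterozygous array 4. Gpr17 was called in 21 of 21 settings. With the other choice of probe set Siah1a turned to -0.28 and Sox11 to -0.15. Mbp was then -0.17 and Kcnq5 -0.46, because probe sets with less difference were read, and neither was called. The test of the difference between tissues called 1 gene with a pseudocount of 64 (Gpr17), 1 without cross-hybridising probe sets, 1 with each probe set tested, and 0 to 2 with 1 array left out, 2 only without forebrain heterozygous array 4. With the embryo as a random block, the counts were 16 in spinal cord (7 higher and 9 lower) and 0 for the difference between tissues, and as a fixed block 0 for that difference. Among values of single genes, 82 lost their call, 2 reversed in sign and 12 gained a call. Of the list medians, 24 moved by more than the spread between arrays. The other 4443 values of genes and medians were counted as the same. Only the 16 called genes could lose a call, so the 82 are not to be read as a share of the 4443. Genes never called were counted as the same even where their sign turned. Olig2 kept its call in 8 of 21 settings. Signal over background limits what can be said of genes below the filter. The cause of the lost calls was not tested.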

Other observations

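Cell cycle and stress genes were read for completeness. Of 16 tested proliferation genes limma called 0 and 2 had an unadjusted p under 0.05, with a median of 0.06. Mcm2, a replication helicase subunit, had 878 and 779.9 in null cord, against 342 and 627 in heterozygous cord, and Aurka, a mitotic kinase, had 289 and 252 in null cord, against 38.4 and 231 in heterozygous cord. In both, heterozygous array 3 was the lowest array. Of 10 tested immediate early and stress genes limma called 0 and 1 had an unadjusted p under 0.05. That gene, Jun, had 712 and 681 in null cord, against 948 and 1176 in heterozygous cord (-0.59 ± 0.14, adjusted p = 0.308).

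Uts2, the gene of the peptide urotensin 2, which motor neurons of the mouse make, was singled out after its values were seen. It had 20.2 and 47.6 in null cord, against 374 and 345 in heterozygous cord, with a difference of -2.97 ± 1.07 (limma adjusted p = 0.642). Sox3, a factor of neural progenitors, also chosen after its values were seen, had 292 and 377 in null cord, against 663 and 693 in heterozygous cord (limma adjusted p = 0.121). Cxcl12, a chemokine of meninges and vessels, had 2156 and 1722 in null cord, against 825 and 1102 in heterozygous cord (limma adjusted p = 0.108). Type IV collagen chain Col4a5 had 1344 and 1294 in null cord, against 506 and 723 in heterozygous cord (limma adjusted p = 0.0977). Cxcl12 and Col4a5 were likewise chosen after their values were seen. None of the 4 genes overlapped between the genotypes, which their choice made likely. Over all tested genes both null arrays lay below in 17.8% and above in 17%.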
